A study of Rattus norvegicus with 12 samples.

Results

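Chrysin, a plant flavone, was compared with vehicle in the hearts of rats with SU-5416/hypoxia pulmonary hypertension. The comparison comprised 8 heart RNA-seq libraries of the 12 in the series, 4 labelled Chrysin and 4 labelled SU_HX, and used all 32623 genes of the deposited count table. All rats were male Sprague Dawley, 5 weeks old and weighing 130 to 150 g. Both groups were injected under the skin with 20 mg/kg SU-5416, which inhibits VEGF receptors, and the labels give 3 weeks at 10% oxygen and 2 weeks of normoxia, in an order that they leave ambiguous. For 3 further weeks in normoxia the SU_HX group was given vehicle and the Chrysin group chrysin at 100 mg/kg per day. The 4 CTRL libraries, from rats kept in normoxia for 8 weeks without the model, are used here as a reference level. They also entered the fit, so they help to set the spread behind each p-value, standard error and interval. No group received chrysin without the model. The labels name the tissue as heart and give no chamber, and nothing in them ties each library to its own animal, so the p-values reflect only the variation among these samples, and that variation may be technical.

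SU-5416 with hypoxia raises the pressure in the lung circulation, and the right ventricle thickens and fails against it. A heart under such load returns to a fetal gene programme: the atrial and brain natriuretic peptides (Nppa, Nppb) and the slow beta myosin heavy chain (Myh7) go up, the fast alpha myosin heavy chain (Myh6) goes down, genes for burning fat go down and collagen genes go up. Chrysin is studied as an antioxidant and anti-inflammatory compound. Many flavones also bind the aryl hydrocarbon receptor (AhR), a transcription factor that switches on the drug-metabolising enzymes Cyp1a1 and Cyp1b1 by binding the core letters GCGTG in DNA.

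Total counts were 4036489 to 5797763 per SU_HX library and 3997306 to 6009798 per Chrysin library. Markers of heart muscle were present in every library, with 5165 to 14248 CPM (read counts after scaling every library to the same total) summed over 8 ventricular markers in SU_HX and 8575 to 46419 CPM in Chrysin. A pair of libraries stood apart. Chrysin 3 lay at -31.3 on principal component 1, between the CTRL libraries (-54.0 to -46.6) and the other model libraries (15.2 to 60.6). SU_HX 1 lay at 70.0 on principal component 2, where the others ran from -28.2 to 11.6, and 63.4% of its nuclear reads were intronic, while the share elsewhere was at least 42.6% and at most 49.999%. Leaving out SU_HX 1, Chrysin 3 or both changed the sign of the log2 fold change between Chrysin and SU_HX for 13 of the 137 genes picked by the naming rule, and changed the sign or moved the value by over 1.5 times for 88 of them. Of the 56 gene list medians 17 changed sign and 52 changed sign or moved by over 1.5 times. Medians without these libraries are given beside most of the lists, over the listed genes still tested, and genes are given without them where the difference was largest or turned.

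**Figure D1:**
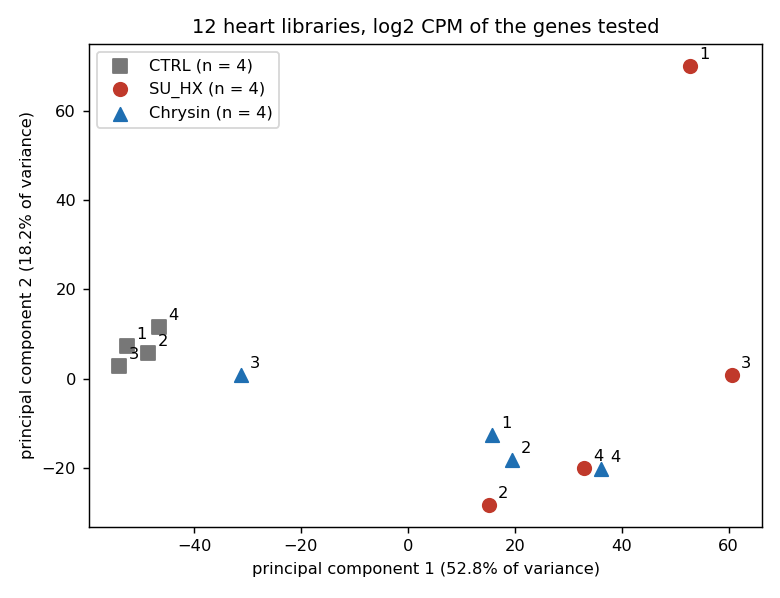
Each point is 1 library, placed by the first and second principal components of log2 CPM (52.8% and 18.2% of the variance), with its replicate number beside it. Chrysin 3 (triangle) sits at -31.3 on component 1, nearest the CTRL squares, and SU_HX 1 (circle) sits alone at 70.0 on component 2.

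No gene passed the test between Chrysin and SU_HX. Of 12304 genes tested with edgeR's quasi-likelihood test, 0 (0%) had a Benjamini-Hochberg adjusted p under 0.05, and the smallest adjusted p was 0.461. At an unadjusted p under 0.05 there were 1002 genes (8.14%), of which 524 were higher (4.26%) and 478 lower (3.88%) in Chrysin. Limma-voom, with and without library weights, also called 0 genes, and DESeq2 called 2, Rgs6 and Cttn_1. The same edgeR fit called 3776 genes (30.7%) between SU_HX and CTRL, a comparison that shares the SU_HX libraries. The values of the 4 Chrysin and 4 SU_HX libraries did not overlap for 283 genes (2.3%), with Chrysin higher for 123 (1%) and lower for 160 (1.3%). The median log2 fold change over all genes tested was -0.05, and 5288 genes (43%) had a value above 0.

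The count at an unadjusted p under 0.05 depended on single libraries. It was 2848 without SU_HX 2, 503 without SU_HX 3 and 471 without Chrysin 3, with 0 genes called in each case. It also depended on the CTRL libraries in the fit. With the 8 compared libraries alone it was 453, and the smallest adjusted p by edgeR was 0.793. The median 95% interval of a log2 fold change reached 0.49 to either side, a 1.40-fold difference, for a single gene before adjustment. Larger differences also went uncalled after adjustment: 120 genes were at least 2-fold higher and 104 at least 2-fold lower in Chrysin, with 0 called. A gene that was not called is therefore not shown to be unchanged. The adjusted p of every gene named below was between 0.461 and 0.994, and the values are descriptions of differences that did not pass.

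The 8 genes in each direction with the lowest p among those with no overlap are described first; they were chosen by this contrast, so their separation is no test. Rgs6 encodes a protein that shortens inhibitory G protein signals, including the muscarinic slowing of the heart. Its level was 13.0, 18.8, 13.7 and 18.0 CPM in SU_HX 1 to 4 and 24.6, 35.0, 51.6 and 28.4 CPM in Chrysin 1 to 4. All 4 Chrysin values lay above the highest SU_HX value and below the CTRL libraries, which held 68.4 to 88.6 CPM. The log2 fold change was 1.12 (standard error 0.22, unadjusted p = 0.000206, adjusted p = 0.557 by edgeR), and it was 0.90 without Chrysin 3. DESeq2 gave it an adjusted p of 0.0206, and over all alternatives its adjusted p ran from 0.0206 to 0.976.

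Ralgps2, an exchange factor that activates the small GTPase Ral, did not overlap either. Its SU_HX libraries held 3.71, 6.56, 5.78 and 6.47 CPM and its Chrysin libraries 10.2, 9.75, 11.5 and 10.6 CPM. The log2 fold change was 0.89 ± 0.19 (standard error), and leaving out Chrysin 3 gave 0.87. Klf15, a transcription factor of cardiac lipid and amino acid metabolism that responds to glucocorticoids, had 23.0, 25.9, 21.8 and 26.8 CPM in SU_HX and 30.4, 38.8, 57.4 and 34.0 CPM in Chrysin. Its log2 fold change was 0.71 ± 0.19 (standard error), against a CTRL level of 71.7 to 99.8 CPM. The other genes on the higher side were Shmt2, the mitochondrial serine hydroxymethyltransferase (0.58), the ubiquitin ligase Trim50 (0.83), the carbonyl reductase Dcxr (1.15), the vesicle protein Syngr1 (1.36) and Tmem126b, an assembly factor of respiratory complex I (0.74), all as log2 fold changes.

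On the lower side, Apoe, the apolipoprotein E of lipid transport that macrophages also make, held 207.6, 124.6, 340.6 and 128.9 CPM in SU_HX and 105.1, 107.4, 69.97 and 82.2 CPM in Chrysin. Every Chrysin value lay below the lowest SU_HX value, and the CTRL libraries held 78.7 to 104.4 CPM. The log2 fold change of Apoe was -1.13 ± 0.29 (standard error), and -1.01 without Chrysin 3. Plekhh2 had 21.6, 12.6, 22.7 and 16.9 CPM in SU_HX and 9.40, 10.4, 5.21 and 9.85 CPM in Chrysin, a log2 fold change of -1.05. Ifitm3, an interferon-induced membrane protein that restricts viruses, had 115.5, 102.8, 163.2 and 112.1 CPM in SU_HX and 82.8, 76.2, 48.6 and 84.1 CPM in Chrysin, a log2 fold change of -0.76. Ifitm3 stood at 31.3 to 43.3 CPM in CTRL, below both groups.

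The remaining genes of the lower side were the PACAP receptor Adcyap1r1 (log2 fold change -0.77), the phospholipid phosphatase Plpp1 (-0.86), the chemerin receptor Cmklr1 (-0.48), the alpha-globin gene Hba-a3 (-3.55) and the leukocyte receptor gene Lilrb3l (-1.19). Hba-a3 was at 0 CPM in Chrysin 2 and Chrysin 3 and at 3.00 to 13.0 CPM in SU_HX, and all of its exon reads (100%) were unique to it. Lilrb3l is uncertain, with 4.13% of its exon reads unique to it, since the counting could split reads shared with near-identical genes. The gene with the lowest p of all, Cttn_1, which encodes the actin-binding protein cortactin, had a near-identical copy, Cttn_2. The table places the copies on chromosome 1 at 215255381 to 215290845 and 217602698 to 217638152, in a build that no source used here names. Cttn_1 was lower in Chrysin (log2 fold change -1.33) and Cttn_2 higher (2.05), and 0.0639% and 0.319% of their exon reads were unique. Their sum ran from 31.0 to 40.5 CPM in SU_HX and from 26.9 to 31.5 CPM in Chrysin, so the copies together overlapped between the groups. Both were singled out after their values were seen.

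**Figure D2:**
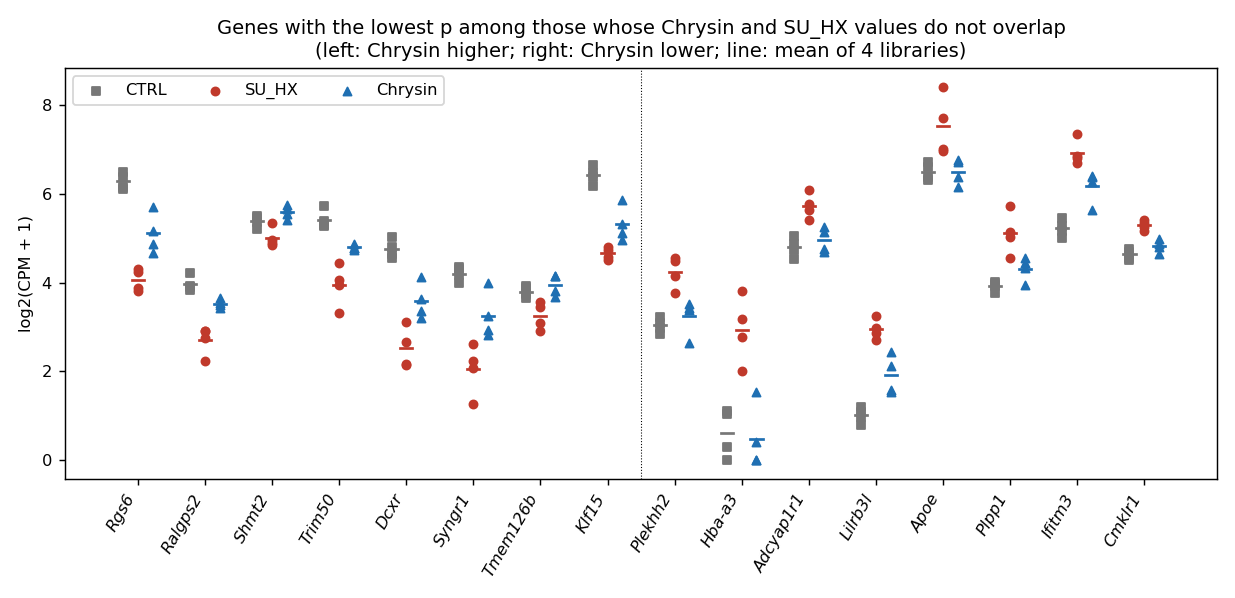
Level of each gene in each library as log2(CPM + 1), with the group mean as a line; the 8 genes on the left had higher values in Chrysin and the 8 on the right lower values. For some, such as Rgs6 with 24.6 to 51.6 CPM, all Chrysin libraries lie between the SU_HX and the CTRL libraries, and for others, such as Apoe with 69.97 to 107.4 CPM, they overlap with CTRL.

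The load-responsive heart genes overlapped between Chrysin and SU_HX, and 1 library set most of the difference in Myh6. Nppa, the atrial natriuretic peptide, held 1293, 5745, 4117 and 4587 CPM in SU_HX and 7084, 2941, 119.9 and 4479 CPM in Chrysin. Chrysin 3 alone was low, and CTRL held 6.22 to 26.5 CPM. The log2 fold change of Nppa was -0.11 (95% interval -1.80 to 1.59), and 0.31 without Chrysin 3. Myh6, the fast alpha myosin heavy chain, held 4057, 6901, 1150 and 3930 CPM in SU_HX and 4393, 4550, 35113 and 3447 CPM in Chrysin, where Chrysin 3 was near the CTRL level of 37557 to 43227 CPM. Its log2 fold change was 1.57 (95% interval 0.01 to 3.12), and 0.07 without Chrysin 3. Myh7, the slow beta myosin heavy chain, had a log2 fold change of 0.06 (-0.75 to 0.87) and Nppb, the brain natriuretic peptide, of -0.09 (-1.05 to 0.86).

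Other genes of muscle function leaned higher in Chrysin without passing. Atp2a2, the calcium pump that refills the sarcoplasmic reticulum, held 2092, 8455, 3132 and 5560 CPM in SU_HX and 7835, 7432, 13044 and 5634 CPM in Chrysin, a log2 fold change of 0.82 (-0.06 to 1.70). Acta1, the skeletal alpha actin of the fetal programme, had a log2 fold change of 0.11. Among the adult contraction and calcium handling genes, 25 of 27 had a value above 0 with a median of 0.50, against 43% and -0.05 over all genes tested. Of the 27, 0 were called and 3 were higher at an unadjusted p under 0.05 by edgeR, as were 4.26% of all genes tested. The lowest p were those of the muscle creatine kinase Ckm (1.04) and the calcium channel subunit Cacnb2 (0.38). The list median was 0.28 without Chrysin 3, 0.33 without SU_HX 1 and 0.13 without both. Among 23 ion channel and gap junction genes the median was 0.34 (0.20 without both), with the potassium channel gene Kcnh2 at 0.77; Kcnip2, a channel subunit gene, was at 1.01 with 1.57% of its exon reads unique. The 24 genes of the cardiac stress response had a median of -0.08, which was 0.12 without Chrysin 3 and -0.26 without SU_HX 1, with the filament gene Nes at -0.69 and the stress cytokine gene Gdf15 at -1.51.

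**Figure D3:**
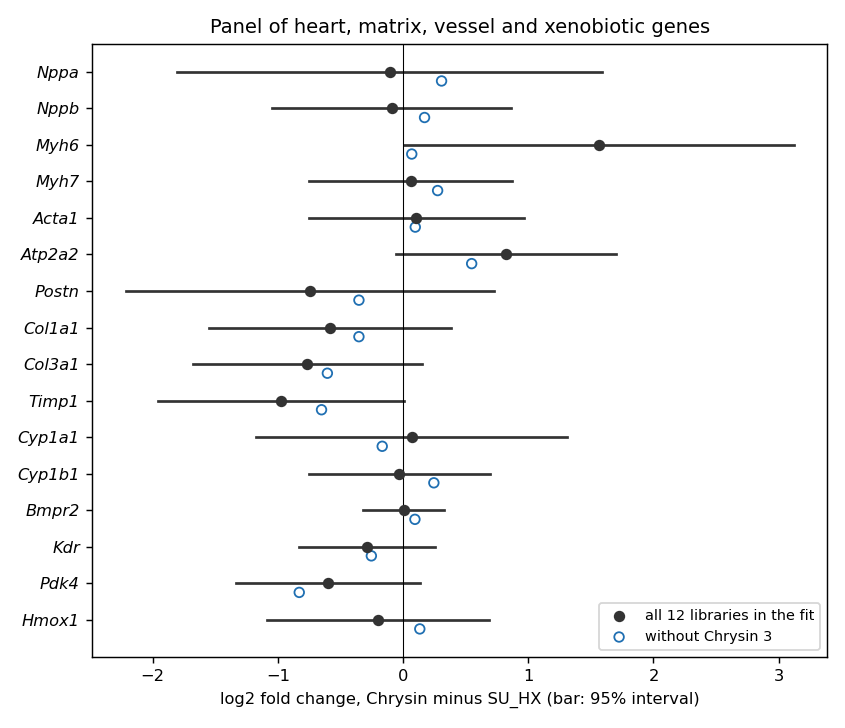
Log2 fold change of Chrysin over SU_HX for 16 genes with its 95% interval (black), and the value without Chrysin 3 (open circle). Except for Myh6, whose lower bound is 0.01, every interval includes 0, and Myh6 drops from 1.57 to 0.07 without Chrysin 3.

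Genes of energy metabolism encoded in the nucleus had higher values in Chrysin almost throughout, with 0 called. Of 50 measured nuclear genes of oxidative phosphorylation, which make the respiratory chain, 50 had a log2 fold change above 0 and the median was 0.57. At an unadjusted p under 0.05 by edgeR 9 were higher, as were 4.26% of all genes tested. The groups stayed apart in 0 of the 50, against 1% of all genes with Chrysin higher. The cytochrome oxidase subunit Cox8b held 108.8, 384.2, 146.7 and 254.2 CPM in SU_HX and 499.5, 367.7, 770.2 and 249.99 CPM in Chrysin (log2 fold change 1.08). SU_HX 1 and 3 were the low libraries, and SU_HX 2 overlapped with Chrysin 2 and 4. The complex I subunit Ndufb10 was at 0.86. The list mean lay 2.14, 0.39, 1.32 and 0.78 log2 units below CTRL in SU_HX 1 to 4; in Chrysin 1, 2 and 4 the differences from CTRL were -0.50, -0.57 and -0.84, and in Chrysin 3 it was 0.04. The median fold change of the list was 0.39 without Chrysin 3, 0.33 without SU_HX 1, 0.86 without SU_HX 2 and 0.13 without both SU_HX 1 and Chrysin 3.

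The neighbouring pathways had the same form. All 22 genes of the tricarboxylic acid cycle had values above 0 (median 0.57, and 0.13 without SU_HX 1 and Chrysin 3), and the lowest p were those of Idh2 (0.82) and Suclg2 (0.59). Of 34 genes of fatty acid oxidation and lipid storage 32 had values above 0, with a median of 0.46. The fatty acid oxidation enzyme Hadh held 33.2, 84.9, 39.0 and 53.1 CPM in SU_HX and 92.9, 64.1, 326.8 and 50.1 CPM in Chrysin (log2 fold change 1.33, and 0.41 without Chrysin 3), and Dgat2, which makes triglyceride, was at 0.79. Without SU_HX 1 and Chrysin 3 the median of that list was -0.01. Ketone and branched-chain amino acid breakdown had 22 of 23 genes above 0 (median 0.54, and 0.16 without both), with the aminotransferase Bcat2 and the ketone dehydrogenase Bdh1 at 0.77 and 0.76. The 18 regulators of the PPAR, PGC-1 and ERR families had a median of 0.30 (0.16 without both), with the receptors Esrra at 0.71 and Ppara at 0.76, and 24 glycolysis genes a median of 0.34 (0.16 without both), with the muscle enzymes Pgam2 at 1.03 and Pfkm at 0.85.

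Transcripts encoded in the mitochondria differed in sign from those lists. All 12 had log2 fold changes below 0 (median -0.35, and -0.59 without Chrysin 3). All genes on the mitochondrial chromosome together took 17.0% to 26.2% of counts in SU_HX and 13.6% to 21.8% in Chrysin. The 14 PPAR target genes had a median of -0.05, and -0.34 without both libraries, with values in both directions. Angptl4, a secreted inhibitor of lipoprotein lipase, held 17.4, 1.77, 14.4 and 11.6 CPM in SU_HX and 1.48, 0.331, 1.65 and 3.02 CPM in Chrysin. Its log2 fold change of -2.76 was far below the list median, with SU_HX 2 in the range of the Chrysin values, and it was -2.74 without Chrysin 3. Pdk4, a kinase that blocks pyruvate use, and Cpt1a, which carries fatty acids into mitochondria, were at -0.60 and -0.36.

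Matrix genes leaned the other way. Of 42 fibrillar collagen and matrix genes, 42 had log2 fold changes below 0, the median was -0.61 and 0 were called. At an unadjusted p under 0.05 by edgeR 7 were lower, as were 3.88% of all genes tested. The groups were apart in 0 of the 42, against 1.3% of all genes with Chrysin lower. Tnc, the matrix protein tenascin C of wound repair, held 75.6, 67.7, 109.9 and 16.4 CPM in SU_HX and 11.2, 26.6, 4.39 and 36.6 CPM in Chrysin (log2 fold change -1.75). SU_HX 4 was the low library of its group and Chrysin 4 the high one. Col6a3 was at -0.93, Col1a1 at -0.58, Col3a1 at -0.76, the fibroblast protein Postn at -0.74 and the protease inhibitor Timp1 at -0.98. The list median was -0.37 without Chrysin 3 and -0.22 without SU_HX 3, whose list mean was 2.93 above CTRL where the other SU_HX libraries were 1.64 to 1.94 above it. Col1a1 was at 0.02 without SU_HX 3. Fibroblast markers moved with these genes, but the marker list itself holds matrix genes, among them Col1a1, Col1a2, Dcn and Lum. Of the markers 13 of 15 were below 0, and Ddr2 and Pdgfra were at -0.43 and -0.46. The markers summed to 4159 to 9848 CPM in SU_HX and 3474 to 5745 CPM in Chrysin. Col1a1 alone held 1623 to 6222 CPM in SU_HX and 1044 to 3465 CPM in Chrysin. Fewer cells of a type and less RNA per cell cannot be told apart in these bulk samples.

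The signals that drive matrix, and those that shape vessels, had smaller differences. Among 21 proteases and inhibitors the median was -0.46, with the plasminogen activator Plat at -0.74 and the membrane protease Mmp14, whose groups did not overlap, at -0.73. The 24 TGF-beta pathway genes had a median of -0.27, and -0.10 without Chrysin 3, with the activin subunit gene Inhba at -0.97 and the receptor gene Tgfbr1 at -0.42. The 19 BMP pathway genes had a median of -0.18, which was 0.00 without Chrysin 3 and -0.01 without SU_HX 1, with the transcription factor genes Smad9 at 0.88 and Smad1 at -0.25. Bmpr2, the BMP receptor mutated in heritable pulmonary hypertension, held 247.6 to 312.4 CPM in SU_HX and 235.7 to 296.7 CPM in Chrysin, a log2 fold change of 0.00 (95% interval -0.32 to 0.33). The median of 21 VEGF and angiopoietin genes was -0.22, and it turned to 0.15 without SU_HX 1. Of these genes Apln was at 1.07, and at 0.59 without Chrysin 3, Vegfb was at 0.84, and the VEGF receptor Kdr was at -0.29 (-0.83 to 0.25), and at 0.08 without SU_HX 1. All 15 vascular tone genes were below 0 (median -0.36, and -0.14 without both), including the prostacyclin receptor Ptgir at -0.92 and the cyclic GMP phosphodiesterase Pde5a, the target of sildenafil, at -0.68.

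Interferon-stimulated genes, the antiviral response, had lower values in Chrysin that did not rest on Chrysin 3. All 24 were below 0, with a median of -0.42 both with and without Chrysin 3; 7 had an unadjusted p under 0.05, where 3.88% of all genes tested were lower at that p, and 3 had no overlap, as did 1.3% of all genes on the lower side. These were Mx2, Oas1a and Isg15, the last named after its values were seen. Mx2, an antiviral GTPase, held 40.8, 35.4, 24.8 and 22.4 CPM in SU_HX and 15.7, 21.8, 18.7 and 20.7 CPM in Chrysin (log2 fold change -0.68). Oas1a, which makes the messenger that activates RNase L, held 8.58, 5.14, 3.64 and 3.93 CPM in SU_HX and 1.98, 3.64, 1.92 and 2.38 CPM in Chrysin (-1.07). The list mean was 0.69, 0.28, 0.32 and 0.10 above CTRL in SU_HX 1 to 4 and ran from -0.26 to 0.05 in Chrysin. The groups did not overlap, by a narrow gap, and with 56 lists described this separation is no test. Without SU_HX 1, the highest library, the list median was -0.23.

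Of 21 NF-kB pathway and target genes 18 were below 0 (median -0.28, and -0.13 without Chrysin 3), where 43% of all genes tested were above 0. The groups did not overlap for 3 of them, as for 1.3% of all genes on the lower side. The monocyte attractant Ccl2 held 12.8, 12.2, 9.85 and 7.86 CPM in SU_HX and 5.77, 2.48, 2.20 and 7.63 CPM in Chrysin (log2 fold change -1.20, and -0.98 without Chrysin 3). The adhesion molecule Vcam1 held 18.3, 13.5, 18.6 and 17.3 CPM in SU_HX and 13.2, 11.4, 7.68 and 10.3 CPM in Chrysin (-0.65), and the adhesion molecule Icam1, named after its values were seen, was the other one. Complement genes had a median of -0.44 over 21, which became -0.19 without Chrysin 3 and -0.12 without SU_HX 3, with C7 at -0.97 and Cfb_1 at -0.72. Macrophage and monocyte markers moved with these genes, with 13 of 14 below 0 (median -0.43, and -0.22 without both). Their list includes the complement genes C1qa, C1qb and C1qc. The markers summed to 618.3 to 1343 CPM in SU_HX and 310.1 to 829.1 CPM in Chrysin. Their lowest p were those of Cd14 (-0.69) and Lyz2 (-0.86). Their part in the inflammatory values was not tested. The 17 cytokine and chemokine genes had a median of -0.10. Without Chrysin 3 it was 0.07 over these genes, and -0.11 over all members tested in that refit. Cxcl11 was at 2.73, and at 1.45 without Chrysin 3. Its level in SU_HX was 0 to 0.231 CPM, at the floor of the counts. Chrysin 3 held 3.02 CPM, near the CTRL mean of 2.69 CPM, and the other Chrysin libraries held 0.165 to 0.496 CPM. Of the exon reads of Cxcl11, 28.5% were unique.

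Immediate early genes, which are induced within minutes of a stimulus, were below 0 in 21 of 22 cases (median -0.56), and this value rested on SU_HX 1. Without that library the median was -0.14; its list mean was 1.26 above CTRL, where the other SU_HX libraries lay between -0.25 and 0.18. Fosb, chosen after its values were seen, held 148.2, 3.37, 17.8 and 6.93 CPM in SU_HX and 6.27, 6.78, 9.06 and 3.18 CPM in Chrysin. Nr4a3, a nuclear receptor of this class, did not overlap, with 15.8, 12.1, 14.4 and 13.4 CPM in SU_HX and 8.41, 8.10, 4.66 and 8.58 CPM in Chrysin (log2 fold change -0.88), and Egr3 was at -1.85.

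**Figure D4:**
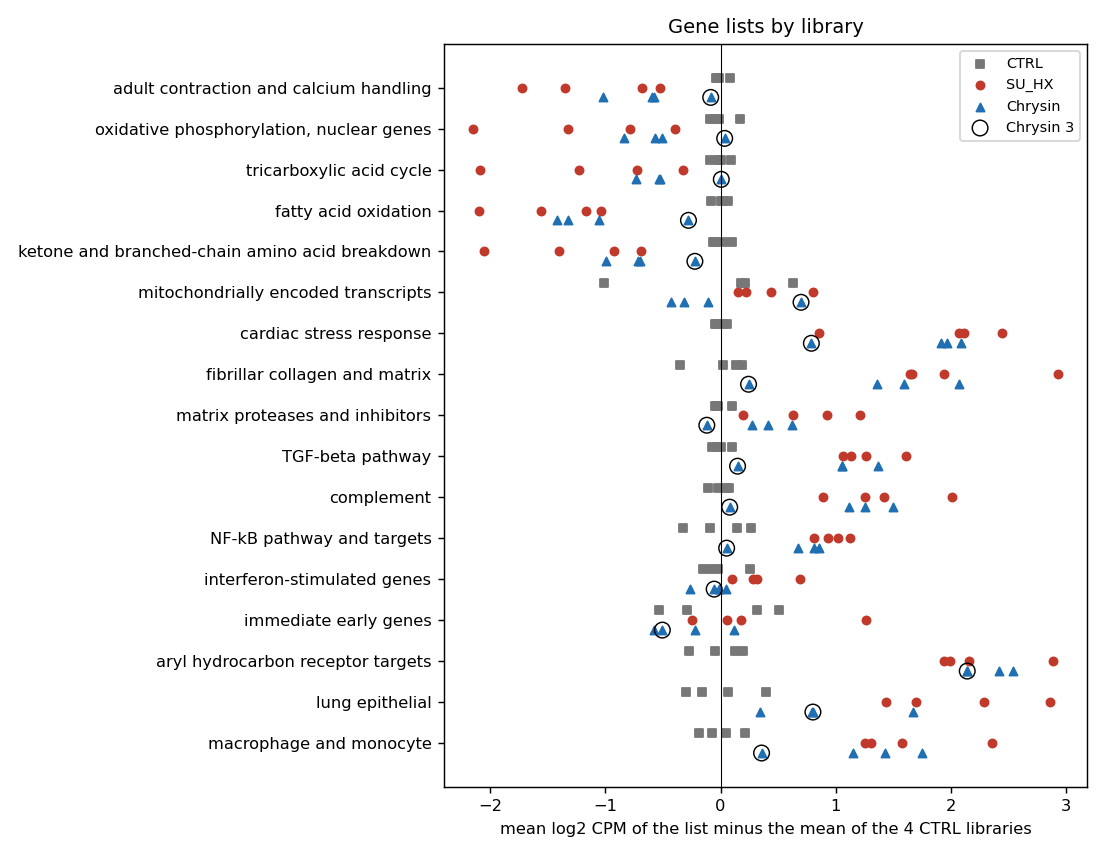
Mean log2 CPM of each gene list in each library, minus the mean of the 4 CTRL libraries; the circled triangle is Chrysin 3. Chrysin 3 lies near 0 in most lists but at 2.14 for the aryl hydrocarbon receptor targets, and the interferon-stimulated genes lie at 0.10 to 0.69 in SU_HX and -0.26 to 0.05 in Chrysin.

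Of the aryl hydrocarbon receptor targets, Cyp1a1, Cyp1b1 and Ahrr were above CTRL in all 8 model hearts, with and without chrysin, and the SU_HX and Chrysin libraries overlapped for each. Cyp1a1, which oxidises polycyclic hydrocarbons, held 268.4, 40.9, 78.2 and 42.5 CPM in SU_HX and 89.2, 77.0, 175.1 and 110.5 CPM in Chrysin, against 0 CPM in all 4 CTRL libraries. SU_HX 1 was the highest library, and Chrysin 3 was the highest of its group. The log2 fold change between Chrysin and SU_HX was 0.07 (95% interval -1.17 to 1.31), and 1.06 without SU_HX 1. Leaving out the highest SU_HX value of this gene raises its fold change by design, so the second value is no test. The smallest adjusted p of any gene in that refit was 0.694 by edgeR. Cyp1b1, which oxidises steroids and hydrocarbons, held 578.5, 299.1, 478.5 and 297.6 CPM in SU_HX and 515.5, 353.1, 175.9 and 572.6 CPM in Chrysin, against 10.1 to 17.3 CPM in CTRL. Its log2 fold change was -0.03 (-0.75 to 0.69).

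Ahrr, the repressor that the receptor induces to shut itself off, held 27.4, 10.1, 6.43 and 4.62 CPM in SU_HX and 14.8, 13.6, 10.2 and 17.2 CPM in Chrysin, against 0 to 0.575 CPM in CTRL. The log2 fold change between Chrysin and SU_HX was 0.22, and 0.97 without SU_HX 1, which was again the highest SU_HX library. The list of 8 measured genes had a median of 0.07 (0.31 without both libraries), with Nqo1, a quinone reductase, at 0.06 and the receptor gene Ahr at -0.53. Tiparp, a feedback enzyme, was at 0.22 and stood no higher than CTRL on average, with means of 33.8 CPM in SU_HX, 39.6 CPM in Chrysin and 40.8 CPM in CTRL. Chrysin 3 held 35113 CPM of Myh6, near the CTRL level, and 119.9 CPM of Nppa, above the 6.22 to 26.5 CPM of CTRL. Its list mean for the receptor targets was 2.14 above CTRL, within the 1.94 to 2.88 of SU_HX.

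The promoters of Cyp1b1 and Ahrr are shown because both genes stood far above CTRL in every model library. The sequences are RefSeq's for build GRCr8, 5′ to 3′ on the gene's strand, from 250 bases before to 50 after the gene's start, with the receptor's core GCGTG, or CACGC where it lies on the opposite strand, in capitals.
Cyp1b1, chr6:21094315-21094614, plus strand: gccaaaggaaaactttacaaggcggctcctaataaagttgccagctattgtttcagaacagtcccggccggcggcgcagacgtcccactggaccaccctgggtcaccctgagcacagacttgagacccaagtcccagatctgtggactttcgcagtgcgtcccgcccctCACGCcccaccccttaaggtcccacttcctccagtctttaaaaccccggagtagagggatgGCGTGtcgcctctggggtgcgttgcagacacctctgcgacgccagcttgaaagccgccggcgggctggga
Ahrr, chr1:30821969-30822268, plus strand: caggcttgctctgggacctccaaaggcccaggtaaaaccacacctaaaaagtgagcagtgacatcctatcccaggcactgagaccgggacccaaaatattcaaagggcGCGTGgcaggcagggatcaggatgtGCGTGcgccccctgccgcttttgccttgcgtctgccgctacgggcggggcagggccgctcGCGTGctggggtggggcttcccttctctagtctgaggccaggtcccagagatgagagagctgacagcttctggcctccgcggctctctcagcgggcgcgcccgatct
The Cyp1b1 window held the core 2 times and the Ahrr window 3 times. Of the 12 genes on the list, 10 had a promoter in the table, and 8 of these held the core on either strand at least once. The core was found in 29.7% of all 33469 promoters of this length, and a match is a description of the letters only.

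**Figure D5:**
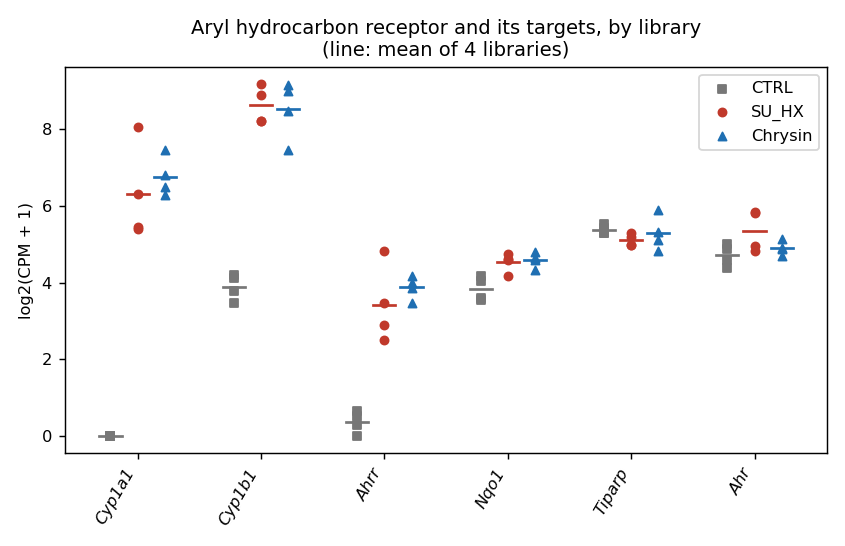
Level of the receptor gene Ahr and 5 of its targets in each library as log2(CPM + 1), with the group mean as a line. For Cyp1a1, Cyp1b1 and Ahrr the SU_HX and Chrysin libraries overlap and all lie above the CTRL libraries.

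Antioxidant genes showed no common direction. The 21 genes of the NRF2 and glutathione list had a median of 0.01, with 11 above 0, and the median was 0.07 without Chrysin 3 and -0.11 without SU_HX 1. Gclm, a subunit of the enzyme that limits glutathione synthesis, held 16.9, 24.1, 22.1 and 21.0 CPM in SU_HX and 25.6, 24.6, 30.7 and 31.0 CPM in Chrysin (log2 fold change 0.41, no overlap), while Sod3, the extracellular superoxide dismutase, was at -0.38. Hmox1, the stress-induced haem oxygenase, held 53.6 to 105.4 CPM in SU_HX and 14.3 to 80.6 CPM in Chrysin (-0.20, and 0.13 without Chrysin 3).

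Markers of other tissues also differed between the libraries. All 6 measured lung epithelial markers were below 0 (median -0.91, and -0.16 with genes of at least 5 CPM only). The airway secretory protein Scgb1a1 held 8.81, 4.96, 23.3 and 4.16 CPM in SU_HX and 4.45, 0.331, 1.92 and 0 CPM in Chrysin (log2 fold change -2.62), and the surfactant protein gene Sftpc was at -2.27. Summed over the list this was 51.3 to 115.9 CPM in SU_HX and 40.1 to 62.8 CPM in Chrysin, with 36.9 to 47.7 CPM in CTRL. Of 6 measured atrial markers 4 were below 0 (median -0.70, which turned to 0.23 without SU_HX 2), and their sum was 1373 to 6228 CPM in SU_HX and 264.5 to 7407 CPM in Chrysin. The load-responsive gene Nppa is on this list, with 1293 to 5745 CPM in SU_HX and 119.9 to 7084 CPM in Chrysin. The sum is therefore no measure of atrial tissue alone. The lowest p were those of Myl4, the atrial light chain, at 4.41 to 42.9 CPM in SU_HX and 1.37 to 9.09 CPM in Chrysin (-2.05), and Myl1 at -1.30. Myl1 is known mainly as a light chain of fast skeletal muscle, so it is a weak atrial marker. Of 4 measured skeletal muscle markers 3 were below 0, among them Neb at -0.73, and Ckm, which heart muscle also makes, was at 1.04. The part of tissue composition in the differences above was not tested.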

How the data were processed

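RNA from rat hearts was sequenced on an Illumina instrument, per the labels. The authors deposited a table of whole-number counts per gene, with reads in exons and introns and reads unique to a gene per the file headers. For the aligner, genome build and annotation, no source used here gives a name. Positions of gene starts were counted from 0 and were raised by 1. The authors' own fold changes and p-values were not used. The 8 libraries compared differed beyond sampling noise within groups (chi-square per degree of freedom at least 9.49), so each was counted once.

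Groups were taken from the labels. The test was edgeR's two-sided quasi-likelihood test (version 4.0.16 in R 4.3.3, robust, after filterByExpr and TMM scaling) on all 12 libraries, with Benjamini-Hochberg adjustment and a threshold of 0.05. It was also run on simulated counts with the same dispersion for every gene and no outlying library. These data differ from those settings, so that run does not show how the test behaves here. CPM use TMM-scaled totals, and log2 CPM a prior count of 2. Among official symbols with at least 1 CPM, the rule for named genes took genes that passed. Where fewer than 8 passed in a direction, it took the 8 lowest p without overlap. A panel of 16 genes and up to 2 members with the lowest p of each list were added without that filter. The comparison, the 56 gene lists and the rule were chosen with earlier results of these data known. Alternatives were relative-log (RLE) factors, 2 other filters, DESeq2 1.42.0, limma-voom (limma 3.58.1) with and without weights, the 8 libraries alone, a replicate block, libraries left out and unique exon reads. Promoters came from RefSeq, build GRCr8.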

Additional observations from a re-analysis of the deposited data

Results flagged for a closer look

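In 22 of 298 groups of 4 values (genes and list means), 1 library lay farther from the other 3 than Dixon's 95% limit for 4 samples; chance flags about 1 in 20 groups. Chrysin 3 was the library in 14 of them and SU_HX 1 in 4.

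Chrysin 3 was high for Myh6 (35113 CPM, others 3447 to 4550), Cacnb2 (69.97, others 59.4 to 60.6), Hadh (326.8, others 50.1 to 92.9), Dgat2 (24.1, others 8.58 to 10.8), Bdh1 (169.6, others 93.4 to 104.1), the growth arrest gene Sesn1 (93.6, others 56.3 to 62.1) and Cxcl11 (3.02, others 0.165 to 0.496), all in CPM. It was low for Bmpr2 (235.7, others 290.7 to 296.7), Hmox1 (14.3, others 71.6 to 80.6) and Nr4a3 (4.66, others 8.10 to 8.58). Its list mean, as log2 units from CTRL, was low for the cardiac stress response (0.79, others 1.91 to 2.09), p53 targets (0.019, others 0.33 to 0.40), fibroblast markers (0.12, others 0.79 to 0.91) and B and plasma cell markers (-0.50, others 0.25 to 0.39).

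SU_HX 1 was high for Cyp1a1 (268.4 CPM, others 40.9 to 78.2), Egr3 (21.3, others 6.21 to 8.51) and Fosb (148.2, others 3.37 to 17.8), and for the endothelial list mean (1.54, others -0.04 to 0.21). SU_HX 3 was high for Mmp14 (120.6 CPM, others 52.4 to 59.1) and Lyz2 (347.6, others 116.7 to 137.3). SU_HX 2 was low for Ddr2 (62.0 CPM, others 93.2 to 95.3), and SU_HX 4 was high for Gdf15 (19.4, others 4.18 to 6.64).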

How the results depend on the processing

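No gene was called under any alternative other than DESeq2, which called 2. The count at an unadjusted p under 0.05 was 453 with the 8 libraries alone, 532 without SU_HX 1 and Chrysin 3, and 471 to 2848 with single libraries left out. Genes without overlap numbered 885 without SU_HX 1 and Chrysin 3, and 285 to 1739 with single libraries left out, where groups of fewer libraries separate more easily. Of genes at an unadjusted p under 0.05, 52.3% were higher in Chrysin, and 63.9% with limma-voom; with RLE factors 147 genes without overlap were higher and 139 lower. The replicate block called 0 genes, with 872 at an unadjusted p under 0.05. Same-numbered libraries correlated at -0.38 to 0.05 and differently numbered ones at -0.22 to 0.49. These correlations cannot decide whether the numbers pair the libraries, and the main test did not pair them.

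Of 2034 recomputed gene values 49 changed sign, in 13 genes, and 2 passed the threshold, both with DESeq2. Nppb was 0.0499 with the replicate block. With weighted limma-voom Myh7 was -0.10, Acta1 -0.43, Cyp1b1 0.23, Bmpr2 -0.0324 and Kdr 0.19. Cyp1b1 was 0.0027 with RLE factors, 0.0223 without a filter and 0.0023 with DESeq2. Bmpr2 was -0.0116 above 5 CPM and -0.0036 with limma-voom. Without both SU_HX 1 and Chrysin 3, Nppa was 0.0048, Acta1 -0.16, Cyp1b1 0.42, Kdr 0.08, Hmox1 0.01 and Ahrr 1.08. With libraries left out, Nppa ran from -0.65 to 0.31, Nppb from -0.38 to 0.17, Myh7 from -0.14 to 0.28, Acta1 from -0.16 to 0.37, Col1a1 from -0.92 to 0.0176, Cyp1a1 from -0.20 to 1.06, Cyp1b1 from -0.21 to 0.42, Bmpr2 from -0.039 to 0.10, Kdr from -0.44 to 0.0795, Hmox1 from -0.33 to 0.13, Ahrr from -0.0464 to 1.08, Nqo1 from -0.0278 to 0.16 and Tiparp from -0.0145 to 0.37. Of 1232 recomputed list medians 65 changed sign. The cause was not tested.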

Other observations

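Other gene groups also held 0 called genes between Chrysin and SU_HX. The 18 circadian clock genes had a median log2 fold change of 0.05, and 0.36 without SU_HX 1. The 17 p53 and growth arrest genes had a median of -0.25 (-0.10 without Chrysin 3), against which Sesn1, a sestrin that restrains growth signalling, held 39.0, 53.5, 41.3 and 38.1 CPM in SU_HX and 59.5, 62.1, 93.6 and 56.3 CPM in Chrysin (0.65). The 13 glucocorticoid targets had a median of -0.36 (-0.13 without SU_HX 1) and the 20 heat shock and ER stress genes one of -0.05. Ribosomal protein genes (61) had a median of -0.08, and -0.23 without SU_HX 1, and proteasome genes (27) one of 0.16, and 0.05 without SU_HX 1. The 30 cell cycle genes had a median of -0.07, which was 0.31 without SU_HX 1 and -0.26 without Chrysin 3.

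Endothelial markers had a median of -0.33 over 12 genes, and 0.14 without SU_HX 1. The 7 erythroid markers had a median of -0.22, and 0.07 without Chrysin 3, with 3166 to 5040 CPM summed in SU_HX and 1296 to 7698 CPM in Chrysin. The summed ventricular markers and most other lists overlapped between the groups. Across the 40 pathway lists the median was below 0 in 25, and across the 16 cell type lists in 14.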
